A study of Mus musculus with 9 samples.

Results

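The integrated stress response and amino acid supply module holds 48 mouse genes, chosen by name from the 17562 genes and transgene rows of the normalized table, and all 48 were found there. They were 14 regulators and effectors around the transcription factor ATF4, 6 enzymes of amino acid synthesis, 9 amino acid transporters and 19 cytosolic aminoacyl-tRNA synthetases. Their RNA was measured by bulk RNAseq of whole submandibular glands (SMGs) from 9 adult male mice, 4 wildtype (WT) and 5 *Hs3st3a1*;*Hs3st3b1* double knockout (DKO), with 1 library per mouse. Both genes encode heparan sulfate 3-*O*-sulfotransferases, which add a late sulfate group to heparan sulfate chains. DKO mice carried, on the same allele, a frameshift deletion in exon 1 of *Hs3st3a1* made with zinc finger nucleases and an *Hs3st3b1* knockout derived from KOMP embryonic stem cells. The deletion affects the whole body and the background was C57BL/6. Several founders were bred, and the sources used here do not give the founder or the exact age of the sequenced mice.

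ATF4 is the central transcription factor of the integrated stress response. Kinases that sense amino acid shortage, misfolded protein in the endoplasmic reticulum, haem deficiency or viral RNA phosphorylate the initiation factor eIF2, which lowers protein synthesis in general while translation of *Atf4* mRNA goes up. With C/EBP family partners, ATF4 then binds composite elements and drives genes for amino acid synthesis, uptake and tRNA charging, and also other genes such as *Trib3* and *Chac1*. Salivary acinar cells make and export large amounts of protein, which places a high demand on amino acid supply and on the endoplasmic reticulum.

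The sequence that ATF4 target genes are known for is the C/EBP-ATF composite element, whose core is TGATGNAA, where N is any base. This core was searched on both strands of RefSeq promoters (GRCm38.p6, 250 bases before to 50 after each annotated start), and its reverse complement was read as the same match. Of the 48 members, 36 had a promoter entry, and 14 of these (38.9%) held the core, against 1219 of all 27025 genes in the table (4.51%). The strict form TGATGCAA was present in 11 members (30.6%) and in 279 of all genes (1.03%). Matches occurred in every subgroup, in 5 of 13 ATF4 regulators and effectors, 2 of 5 enzymes, 2 of 6 transporters and 5 of 12 synthetases with an entry. The members were chosen by name as genes of the ATF4 pathway and amino acid supply, so their higher share is not independent of that choice. A match is a description of the letters in this window and not evidence of binding. The stretches around the core are shown for *Vldlr* and *Pycr1*, the 2 members with a core whose WT and DKO values did not overlap, and for 5 further members that were chosen after their values were seen because they span the range of fold changes. Each is read 5′ to 3′ on the strand of its gene, with the core in capitals.

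Vldlr: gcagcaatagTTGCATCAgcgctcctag
Pycr1: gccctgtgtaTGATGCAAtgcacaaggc
Asns: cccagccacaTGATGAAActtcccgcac
Chac1: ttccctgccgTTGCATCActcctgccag
Nupr1: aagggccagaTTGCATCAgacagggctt
Atf3: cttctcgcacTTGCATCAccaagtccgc
Gars: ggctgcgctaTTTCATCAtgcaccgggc

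These stretches lie, in GRCm38, at chr19:27216810-27216837 on the plus strand for *Vldlr*, chr11:120643834-120643861 on the minus strand for *Pycr1* and chr6:7693215-7693242 on the minus strand for *Asns*. *Chac1* has its stretch at chr2:119351039-119351066 (plus), *Nupr1* at chr7:126625563-126625590 (minus) and *Atf3* at chr1:191183426-191183453 (minus). That of *Gars* is at chr6:55037961-55037988 on the plus strand. In the GENCODE M21 annotation the stretches of *Vldlr*, *Asns* and *Nupr1* overlap an annotated exon of the same gene, because some transcripts start further upstream, and that of *Atf3* lies inside the gene outside its exons. No annotated gene covers the other 3. Counted from the RefSeq start, the first base of the core lay at position -200 in *Vldlr*, -193 in *Chac1*, -110 in both *Nupr1* and *Atf3*, -103 in *Pycr1* and -23 in *Asns*. The cystine transporter gene *Slc7a11* held 2 cores within its window. *Slc38a2*, which is described with the transporters, held none, and *Slc1a5* and *Slc7a5* had no entry. Among tested members, the 13 with a core had a median log2 fold change (DKO over WT) of 0.57, with a range of -0.59 to 2.20, and 12 were above 0. The 21 with an entry and no core had a median of 0.33, with a range of -0.72 to 0.87, and 17 were above 0. These ranges overlap over most of their length.

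**Figure D1:**
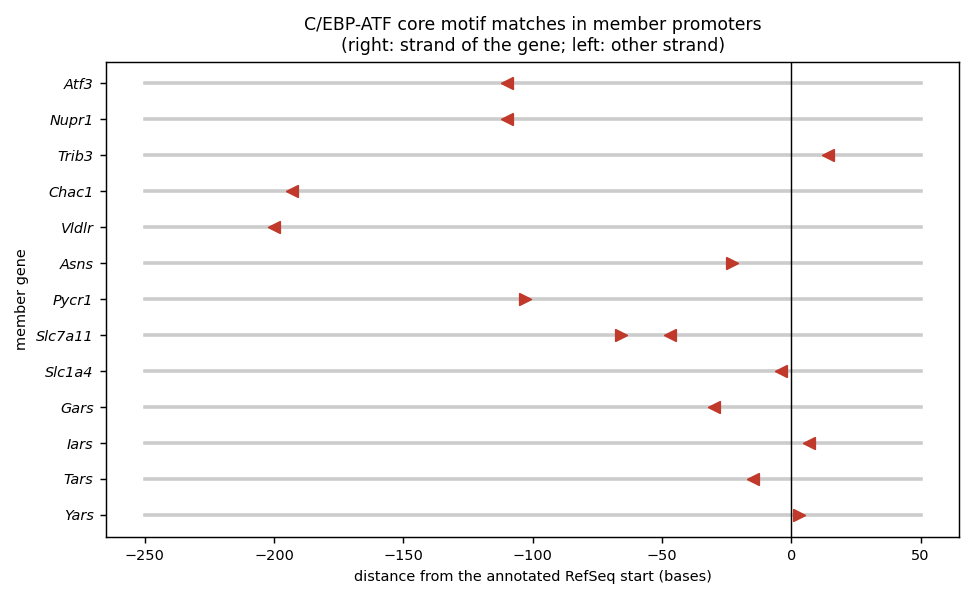
Position of each composite element core in the promoters of 13 of the 14 members that hold one, as distance in bases from the annotated RefSeq start (vertical line at 0). Triangles point right for the strand of the gene and left for the other strand; the grey line is the searched window, and matches lie on both sides of the start, with 2 in *Slc7a11*.

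Total counts were 20653492 to 37870519 per WT library and 17053747 to 34683690 per DKO library. The 20 most abundant genes took 52.9% to 58.7% of the counts in WT and 59.4% to 70.3% in DKO. *Hs3st3a1* had 3 to 14 counts in WT and 0 in each DKO library, and *Hs3st3b1* had 67 to 216 in WT and 7 to 45 in DKO, as labelled. The SMG label was borne out by the acinar marker *Mucl2* and the granular duct markers *Egf* and *Klk1b22*, all abundant. Of 3 sublingual markers, *Gal3st2* was at 0 in all 9 libraries, *Bpifb2* was at 0 in 7 and at most 0.0916 CPM, and *Muc19* reached 3.80 CPM in WT and 6.13 in DKO. Summed over 5 acinar markers, normalized counts (CPM, reads of a gene scaled to library size) were 113708 to 176591 in WT and 175803 to 286919 in DKO. No single acinar marker separated the groups. Nearly all of this sum was *Mucl2*, at 112491 to 175309 CPM in WT and 174468 to 285218 in DKO. Granular duct markers summed to 7719 to 18790 CPM in WT and 1039 to 5588 in DKO, with 4 of 5 lower in every DKO library, and myoepithelial markers to 556 to 870 and 218 to 503, also with 4 of 5 lower. A list of 4 markers drawn up for parotid tissue summed to 32275 to 58399 CPM in WT and 62612 to 102536 in DKO, but nearly all of this was *Prol1* (Mucin 10), which the study uses as an acinar marker of the SMG. Of the other 3, *Prb1* was at most 0.645 CPM and *Amy1* was at 17.3 to 25.5 CPM in WT and 7.10 to 638 in DKO. Both had their highest value in DKO 1. In DKO 1 the parotid marker *Bpifa2* reached 7431 CPM, against 43.3 to 79.1 in the other DKO libraries and 4.42 to 26.5 in WT. Lymphocyte and plasma cell markers (64.4 to 157 CPM in WT, 13.0 to 195 in DKO), adipocyte markers (0.0858 to 1.07 and 0 to 2.15) and skeletal muscle markers (3.21 to 7.86 and 2.67 to 4.79) overlapped between the groups in their sums. In whole glands, fewer cells of a type and less RNA per cell cannot be told apart, and the part of these shifts in the values of the module was not tested.

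Most members of the module had higher values in DKO than in WT SMGs, but none passed the main test. Of the 48 members, 45 passed the filter on low counts and were tested, and 39 of them had a log2 fold change above 0, with a median of 0.36. Over all 13842 genes tested, 52.5% were above 0 and the median was 0.01. The members were chosen with earlier results of these data known, so the shares set side by side here are a description and not independent support. In edgeR's quasi-likelihood fit, with p adjusted by Benjamini-Hochberg across all genes, 0 of the 45 had an adjusted p under 0.05, where 0.629% of all genes did, and the smallest was 0.0548 for *Slc38a2*. At an unadjusted p under 0.05, 22 members were higher in DKO and 1 was lower, beside 6.89% of all genes higher and 7.60% lower. DESeq2's Wald test, run on these counts, gave 10 higher members, *Aldh18a1*, *Asns*, *Gpt2*, *Pycr1*, *Slc1a5*, *Slc3a2*, *Slc6a9*, *Slc7a1*, *Slc7a5* and *Vldlr*, and 1 lower, *Slc38a2*. Its background was 1.77% of genes higher and 2.68% lower. By limma-voom with sample quality weights, 1 member passed, *Slc38a2* (1.07% of all genes passed). The WT and DKO values did not overlap for 3 higher members, *Vldlr*, *Pycr1* and *Slc1a5* (background 2.49%), and for 1 lower member, *Slc38a2* (background 3.51%). Without DKO 4 edgeR called 13 members, beside 441 of all genes (3.20%), without WT 2 it called 4, beside 306 (2.16%), and without any other single library it called 0. The 3 members under the filter were *Cebpb*, with 1 to 12 counts in WT and 3 to 11 in DKO, *Slc7a3*, with 1 to 4 and 1 to 12, and *Slc7a11*, with 1 to 20 and 0 to 19.

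**Figure D2:**
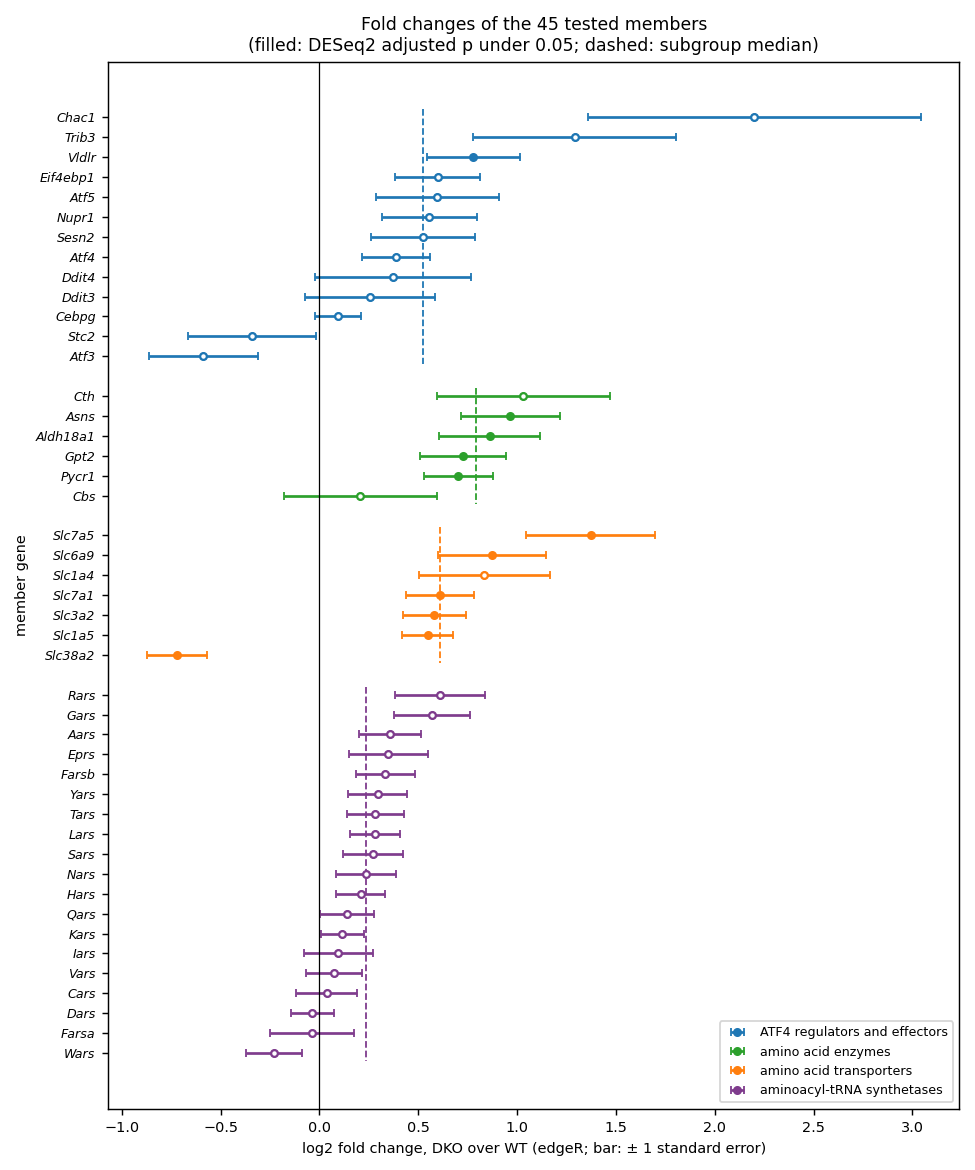
Log2 fold change of each of the 45 tested members (DKO over WT, edgeR, with 1 standard error to each side), grouped and coloured by subgroup; filled points passed DESeq2's test and dashed lines mark subgroup medians. The medians were 0.52 for ATF4 regulators and effectors, 0.79 for enzymes, 0.61 for transporters and 0.24 for synthetases, and *Slc38a2* at -0.72 is the single filled point below 0.

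The ATF4 regulators and effectors showed higher values for several known targets and an uneven pattern between mice. Of 13 tested members, 11 had a log2 fold change above 0 (median 0.52), 6 were higher at an unadjusted p under 0.05 and 1, *Vldlr*, passed DESeq2's test. Over all genes, 6.89% were higher at that unadjusted p and 1.77% by DESeq2's test. *Atf4* (ENSMUSG00000042406) was at 65.3, 90.3, 78.8 and 80.7 CPM in WT 1 to 4 and at 90.2, 102, 104, 75.3 and 144 CPM in DKO 1 to 5. DKO 5 was the highest and 3 DKO libraries lay above every WT library, but DKO 4 fell inside the WT range. The WT mean of 78.8 ± 10.3 CPM (SD, n = 4) and the DKO mean of 103 ± 25.5 (SD, n = 5) gave log2 0.39 (standard error 0.17), which edgeR did not call (adjusted p = 0.328). The response is controlled largely through translation of *Atf4* mRNA, so the mRNA level is not a measure of ATF4 protein.

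*Chac1*, a glutathione-degrading enzyme induced late in the response, had the highest fold change of the module. Its values were 13.2, 72.4, 13.5 and 5.88 CPM in WT and 145, 133, 20.3, 30.8 and 275 in DKO. DKO 1, 2 and 5 stood above every WT library, while DKO 3 and 4 lay between the 3 low WT libraries and WT 2. The log2 fold change of 2.20 had a standard error of 0.84 (adjusted p = 0.249, edgeR). It was 3.47 without WT 2 (adjusted p = 0.0595, edgeR) and 1.65 without DKO 5. *Trib3*, a pseudokinase that restrains ATF4, also had DKO 1, 2 and 5 above every WT library and DKO 3 and 4 not, with 20, 15.9 and 22.5 CPM in DKO 1, 2 and 5, 4.08 and 7.04 in DKO 3 and 4, and 2.49 to 10.4 in WT (log2 fold change 1.29, standard error 0.51, adjusted p = 0.268, edgeR). *Nupr1*, a small stress-induced chromatin protein and the member of this subgroup with the highest mean CPM, was at 196, 238, 144 and 214 CPM in WT and 403, 258, 191, 214 and 390 in DKO. Again DKO 3 and 4 lay inside the WT range (log2 fold change 0.56, standard error 0.24, adjusted p = 0.307, edgeR).

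*Vldlr*, which encodes the very low density lipoprotein receptor, was the only member of this subgroup whose groups did not overlap. It was at 3.12, 3.14, 2.23 and 2.66 CPM in WT and at 6.80, 5.06, 5.18, 3.40 and 3.19 CPM in DKO. The lowest DKO value, in DKO 5, was just above the highest WT value, in WT 2. Its means of 2.79 ± 0.432 CPM (SD, n = 4) and 4.73 ± 1.48 (SD, n = 5) gave a log2 fold change of 0.78 (standard error 0.23), with adjusted p = 0.14 by edgeR and 0.0433 by DESeq2. *Atf3*, a transcription factor induced early by stress, had the lowest fold change, with 3.97, 1.57, 3.56 and 3.65 CPM in WT and 2.02, 1.40, 2.20, 2.69 and 2.32 in DKO. All DKO values were below 3 of the WT libraries, and WT 2 lay among them (log2 fold change -0.59, standard error 0.28, adjusted p = 0.362, edgeR). Log2 fold changes of 0.60 for *Eif4ebp1*, which encodes a repressor of cap-dependent translation, 0.60 for *Atf5*, 0.52 for the mTORC1 inhibitor *Sesn2*, 0.37 for *Ddit4*, 0.26 for *Ddit3* (CHOP) and 0.09 for the ATF4 partner *Cebpg* did not pass the test, nor did that of -0.34 for *Stc2*, which encodes a secreted glycoprotein. *Ddit3* and *Ddit4* were spread widely in DKO, at 2.26 to 9.5 and 1.6 to 6.24 CPM, and DKO 5 was the highest library for both.

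**Figure D3:**
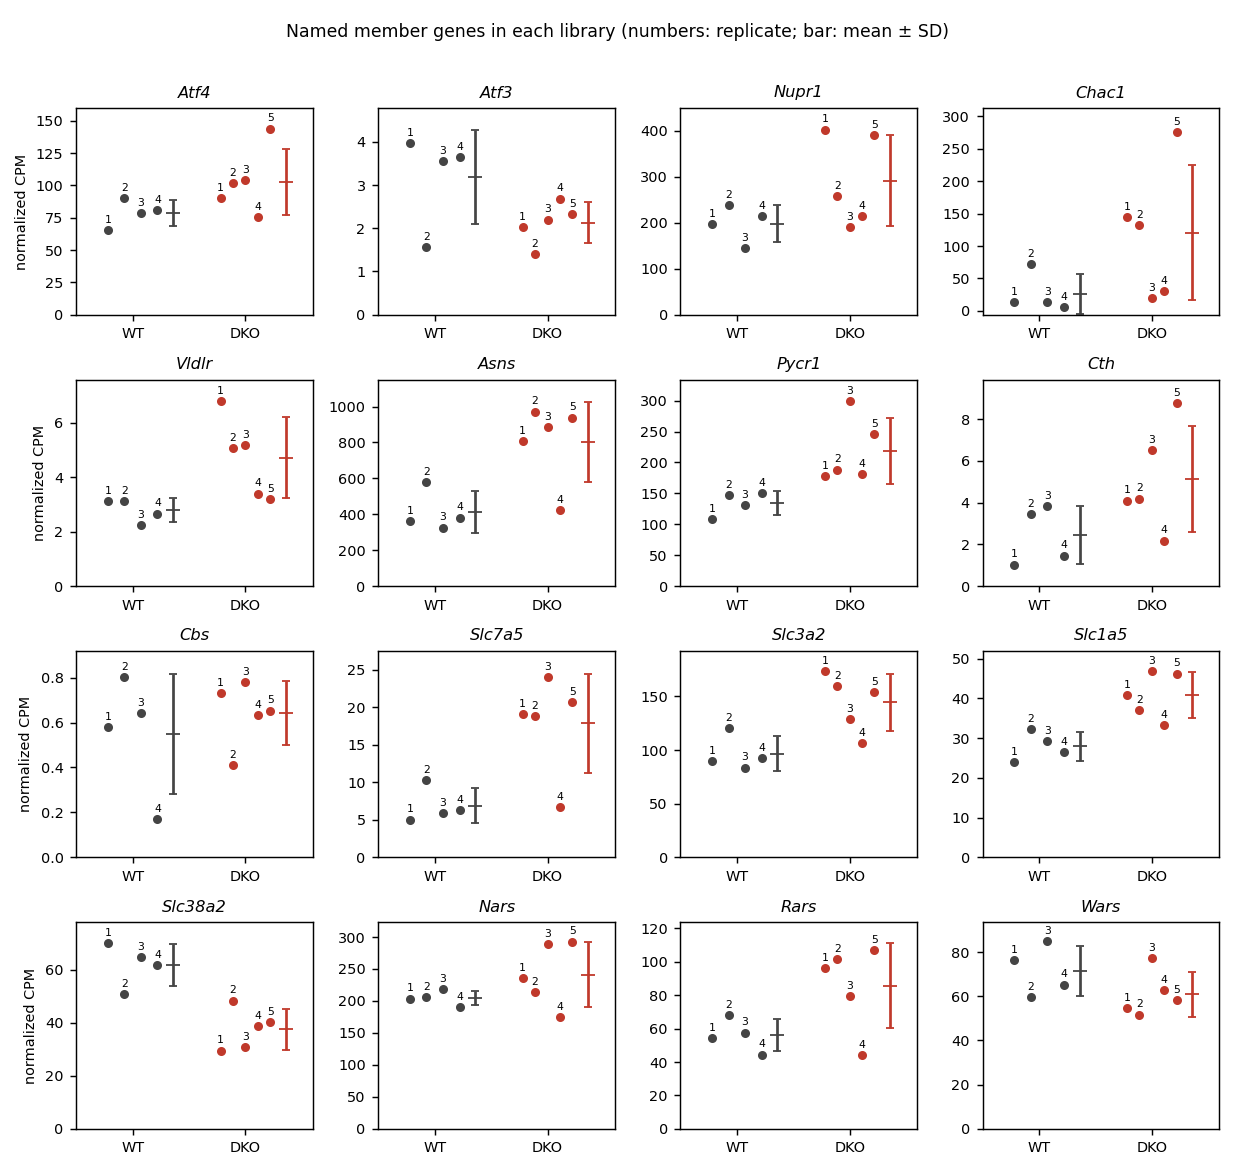
Normalized CPM of the 16 members named by rule in each WT and DKO library; numbers are replicates and the horizontal mark with its bar is the mean ± SD (n = 4 WT, n = 5 DKO). The groups do not overlap for *Vldlr*, *Pycr1* and *Slc1a5* (DKO higher) and *Slc38a2* (DKO lower), and DKO 4 is the DKO library inside the WT range for *Asns*, *Slc7a5* and *Slc3a2*.

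The enzymes had the highest median of the 4 subgroups. All 6 had a log2 fold change above 0 (median 0.79, range 0.21 to 1.03), 5 had an unadjusted p under 0.05 and 4 passed DESeq2's test. The shares of all genes higher by the last 2 measures were 6.89% and 1.77%. *Asns*, asparagine synthetase and a classical ATF4 target, was at 362, 581, 325 and 381 CPM in WT and at 806, 972, 884, 421 and 939 CPM in DKO. DKO 1, 2, 3 and 5 were all above the highest WT library, WT 2, and DKO 4 was between WT 4 and WT 2. The means of 412 ± 115 CPM (SD, n = 4) and 804 ± 223 (SD, n = 5) gave a fold of 1.95 (log2 fold change 0.96, standard error 0.25), with adjusted p = 0.0879 by edgeR and 0.0037 by DESeq2. Per length it was also the most abundant member, with means of 151 CPM per kb of exon in WT and 294 in DKO.

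Proline synthesis from glutamate was represented by its first and last enzymes. *Pycr1*, which makes the final step in mitochondria, was at 109, 147, 131 and 151 CPM in WT and 178, 188, 299.7, 181 and 246 CPM in DKO. Every DKO library was above every WT library, and the groups were 134 ± 19.1 CPM (SD, n = 4) and 219 ± 53.2 (SD, n = 5). The log2 fold change was 0.70 (standard error 0.18), with adjusted p = 0.0793 by edgeR and 0.00577 by DESeq2. *Aldh18a1*, which encodes the enzyme at the head of the same pathway, was at 78.4 to 117 CPM in WT and at 155, 155, 307, 107 and 161 CPM in DKO, with DKO 3 far above the rest and DKO 4 inside the WT range (log2 fold change 0.86, DESeq2 adjusted p = 0.0216). *Gpt2*, a mitochondrial alanine transaminase, had 16 to 26.1 CPM in WT and 18.8 to 40.3 in DKO (log2 fold change 0.73, DESeq2 adjusted p = 0.0332).

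The transsulfuration enzymes, which make cysteine from homocysteine, differed from each other. *Cth*, for the second step, was at 1.03, 3.44, 3.82 and 1.46 CPM in WT and 4.10, 4.20, 6.51, 2.17 and 8.78 in DKO. Of the DKO libraries, only DKO 4 was not above every WT library (log2 fold change 1.03, standard error 0.44, adjusted p = 0.302, edgeR). *Cbs*, for the first step, was near the detection limit, at 0.580, 0.803, 0.641 and 0.172 CPM in WT and 0.732, 0.411, 0.779, 0.632 and 0.653 in DKO. Its groups overlapped fully (log2 fold change 0.21, standard error 0.39), and the sign turned to -0.07 without WT 4, the library with the lowest value.

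Among the transporters, 6 of the 7 tested members had higher values in DKO and *Slc38a2* had lower ones. The median log2 fold change was 0.61, all 6 positive members had an unadjusted p under 0.05, and 5 passed DESeq2's test. Of all genes, 6.89% and 1.77% were higher in DKO by these 2 tests. *Slc7a5* (LAT1), the light chain of the large neutral amino acid exchanger, was at 5.04, 10.3, 5.88 and 6.35 CPM in WT and 19.1, 18.8, 24.1, 6.68 and 20.7 in DKO. DKO 1, 2, 3 and 5 were within a narrow band well above WT, while DKO 4 lay among the WT libraries. The fold was 2.59 (log2 fold change 1.37, standard error 0.33), with adjusted p = 0.067 by edgeR and 0.00133 by DESeq2.

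*Slc3a2* (4F2hc, CD98), the heavy chain that carries LAT1 to the membrane, was at 89.4, 121, 83.7 and 92.3 CPM in WT and 173, 159, 129, 106 and 154 in DKO. As for *Slc7a5*, WT 2 was the highest WT library and DKO 4 the lowest DKO library, while DKO 3, the highest for *Slc7a5*, was here the second lowest of DKO. Its log2 fold change was 0.58 (standard error 0.16), less than that of its partner, with adjusted p = 0.108 by edgeR and 0.0171 by DESeq2. *Slc1a5* (ASCT2), a glutamine and neutral amino acid exchanger, was at 23.9, 32.2, 29.2 and 26.4 CPM in WT and 40.8, 37.0, 46.9, 33.2 and 46.3 in DKO. All 5 DKO libraries were above all 4 WT libraries, with means of 27.9 ± 3.58 CPM (SD, n = 4) and 40.9 ± 5.89 (SD, n = 5). The log2 fold change of 0.55 (standard error 0.13) had adjusted p = 0.0678 by edgeR and 0.00665 by DESeq2.

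The cationic transporter *Slc7a1* (log2 fold change 0.61, DESeq2 adjusted p = 0.0349), the glycine transporter *Slc6a9* (0.87, 0.04) and the neutral amino acid transporter *Slc1a4* (0.83, 0.151) each had DKO 1, 2, 3 and 5 above every WT library and DKO 4 not. *Slc38a2* (SNAT2), a sodium-coupled transporter of small neutral amino acids that is known as an ATF4 target, had the reverse direction. It was at 70.1, 50.9, 64.7 and 61.6 CPM in WT and 29.5, 48.4, 30.8, 38.8 and 40.2 in DKO. All 5 DKO values were below all 4 WT values, although DKO 2 and WT 2 were close. The means were 61.8 ± 8.1 CPM (SD, n = 4) and 37.5 ± 7.66 (SD, n = 5). Its log2 fold change, -0.72 (standard error 0.15), had adjusted p = 0.0548 by edgeR and 0.00163 by DESeq2, and over 17 alternative settings it lay between -0.83 and -0.64.

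The synthetases, which charge tRNAs with their amino acids, had the smallest differences, and none of the 19 passed edgeR's or DESeq2's test. Their median log2 fold change was 0.24 (range -0.23 to 0.61), 16 were above 0 and 5 had an unadjusted p under 0.05. Those 5 were all higher in DKO, as were 6.89% of all genes at that p. *Rars*, for arginine, had the highest fold change, with 54.4, 68.0, 57.6 and 44.5 CPM in WT and 96.2, 102, 79.3, 44.0 and 107 in DKO. The first 3 DKO libraries and DKO 5 were above all of WT, and DKO 4 was below all of WT (log2 fold change 0.61, standard error 0.23, adjusted p = 0.237, edgeR). *Gars*, for glycine, followed with 35.8 to 53.0 CPM in WT and 37.3 to 72.6 in DKO (log2 fold change 0.57, adjusted p = 0.191, edgeR).

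*Nars*, for asparagine, was the most abundant synthetase both in CPM and per length (47.0 CPM per kb in WT, 55.3 in DKO). It was at 204, 206, 219 and 191 CPM in WT and 235, 214, 289, 174 and 293 in DKO. The WT values were tight and the DKO values spread to both sides of them (log2 fold change 0.24, standard error 0.15, adjusted p = 0.544, edgeR). *Wars*, for tryptophan, had the lowest fold change, with 76.2, 59.6, 84.8 and 65.3 CPM in WT and 54.5, 51.7, 77.3, 62.7 and 58.1 in DKO. Here DKO 1, 2 and 5 lay below every WT library, and the groups overlapped (log2 fold change -0.23, standard error 0.14). The log2 fold changes of the other 15 ran from -0.04 for *Farsa* and *Dars* to 0.36 for *Aars*, with *Eprs* at 0.35, *Farsb* at 0.33, *Yars* at 0.29, and *Lars* and *Tars* at 0.28.

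Further genes of the pathway were read from lists of related genes. The kinases, eIF2 subunits, eIF2B subunits and phosphatase subunits that act before ATF4 numbered 16, all tested, with a median log2 fold change of 0.15. None passed edgeR's or DESeq2's adjusted threshold, and 5 were higher at an unadjusted p under 0.05 (edgeR), beside 6.89% of all genes. These 5 were the GCN2 activator *Gcn1* (0.47), *Eif2s2* (0.44), *Ppp1r15b* (0.39), *Eif2ak2* (0.36) and *Eif2b2* (0.26). Of the 4 kinases, *Eif2ak4* (GCN2) was at -0.07, *Eif2ak1* (HRI) at 0.01, *Eif2ak3* (PERK) at 0.31 and *Eif2ak2* (PKR) at 0.36. Of 9 other ATF4 or CHOP targets, 7 were tested with a median of 0.17, and *Pck2*, mitochondrial PEP carboxykinase, passed DESeq2's test (log2 fold change 0.84, adjusted p = 0.0174). The 17 mitochondrial synthetases, encoded by separate genes, had a median of 0.02, with 9 above 0 and none at an unadjusted p under 0.05. The cytosolic synthetase *Mars*, the 3 scaffold proteins and *Tarsl2* had a median of 0.01, with 3 of 5 above 0. Among 25 amino acid transporters outside the module, 19 were tested with a median of 0.20. *Slc6a14* passed edgeR's test (log2 fold change 0.62, adjusted p = 0.0478), beside 0.629% of all genes. DESeq2's test was passed by 8, all higher in DKO, beside 1.77% of all genes. Of these 8, *Slc38a5* and *Slc1a2* had too few counts in WT to pass the filter on low counts without the DKO libraries. Their DESeq2 results are therefore not read as support. *Slc1a2* was at 0.179 to 0.612 CPM in WT and 0.527 to 1.74 in DKO.

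The members did not stand at 1 level across the mice of a group. WT 2 had the highest WT value for 25 of the 45 tested members, including 10 of 13 ATF4 regulators and effectors, 4 of 6 enzymes and 6 of 7 transporters. For the synthetases it was the highest in 5 of 19, and WT 3 was the highest in 13. DKO 4 had the lowest DKO value for 29 of the 45, made up of 4 of 13 ATF4 regulators and effectors, 4 of 6 enzymes, 6 of 7 transporters and 15 of 19 synthetases. The shares of all genes with these libraries at the same ends are not given here. On the main axis of variation over all tested genes (first principal component), DKO 4 was at -11.6 and WT 2 at -9.91. The other DKO libraries were at 4.89 to 56.4 and the other WT libraries at -38.7 to -23.7. The position of WT 2 and DKO 4 between the groups is thus not particular to the module. For 15 members (33.3%), DKO 1, 2, 3 and 5 were each above every WT library and DKO 4 was not, a pattern looked for after the values were seen that 2.24% of all tested genes had. These were 4 enzymes, 5 transporters and 6 synthetases, and none of the ATF4 regulators and effectors. In those 13 genes a second library stood low: DKO 3 had the lowest DKO value for 6 and the highest for 0, although it had the highest for 9 of 19 synthetases and 3 of 6 enzymes.

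**Figure D4:**
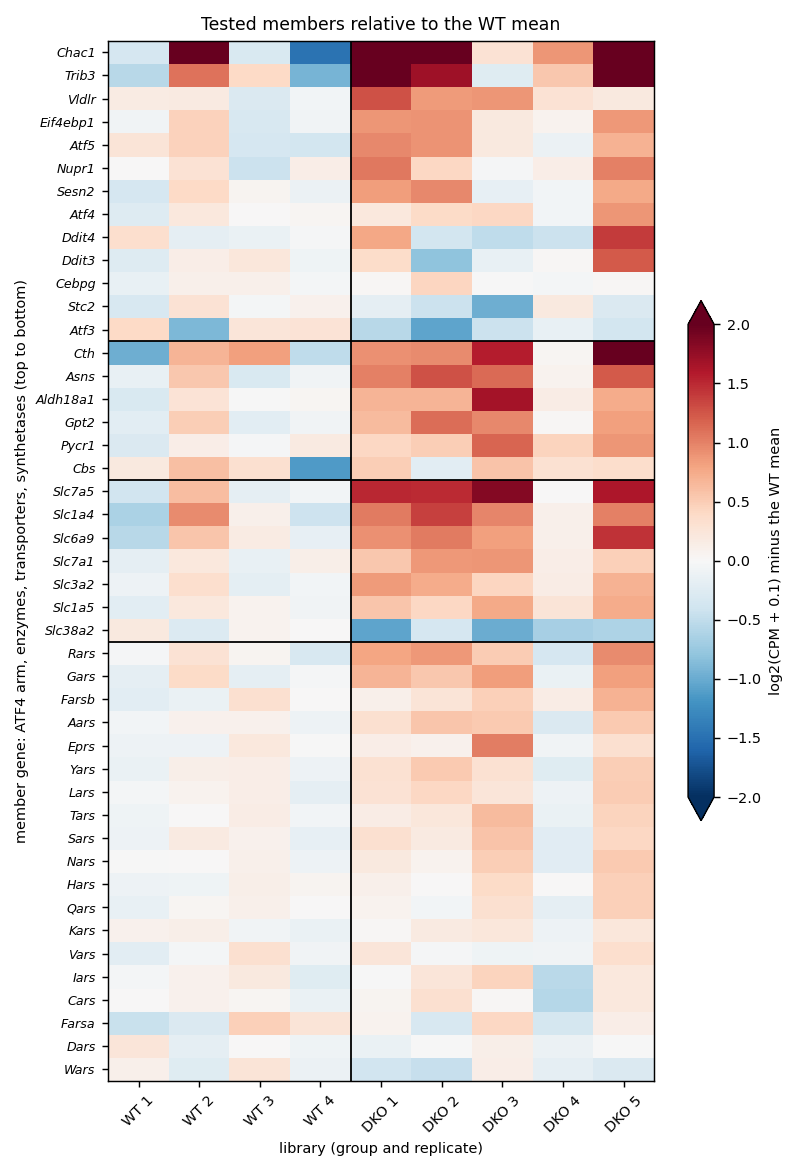
Each tested member in each library as log2(CPM + 0.1) minus its WT mean, with genes in rows by subgroup and libraries in columns; red is above and blue below the WT mean, and the colour scale saturates at its ends. WT 2 is the reddest WT library in the upper 3 subgroups and WT 3 in the synthetases, DKO 4 is close to the WT mean for most genes, and DKO 3 is pale for the ATF4 regulators and effectors but red for the enzymes and transporters.

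As the median over each subgroup of log2(CPM + 0.1) relative to the WT mean, the ATF4 regulators and effectors stood at 0.84, 0.43, -0.03, 0.03 and 0.87 in DKO 1 to 5. The enzymes stood at 0.66, 0.82, 1.15, 0.11 and 0.86 and the transporters at 0.86, 0.87, 0.82, 0.10 and 0.74. The synthetases stood at 0.14, 0.19, 0.41, -0.18 and 0.44. DKO 4 was therefore within 0.2 of the WT mean in all 4 subgroups, and WT 2 was at 0.28, 0.51, 0.34 and 0.04 in the same order. The marker lists of WT 2 and DKO 4 also stood at the ends of their groups, where the acinar sum is nearly all *Mucl2*. WT 2 had the lowest granular duct sum (7719 CPM) and myoepithelial sum (556) of the WT libraries and their highest acinar sum (176591), and DKO 4 had the highest granular duct sum (5588) and myoepithelial sum (503) and the lowest acinar sum (175803) of the DKO libraries. DKO 3, with the lowest granular duct (1039) and myoepithelial (218) and the highest acinar sum (286919), was high for enzymes and not for ATF4 regulators and effectors. DKO 1 had a granular duct sum of 4852, near that of DKO 4, while its ATF4 regulators and effectors stood at 0.84. WT 4 had an acinar sum of 164939 and a granular duct sum of 11375, and its 4 subgroup medians lay between -0.10 and -0.05. The part of cell composition in the module's values was not tested. Leaving out DKO 1, the library with the high *Bpifa2* and *Amy1*, gave subgroup medians of 0.43, 0.84, 0.63 and 0.24 in the same order, and 0 members called by edgeR.

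**Figure D5:**
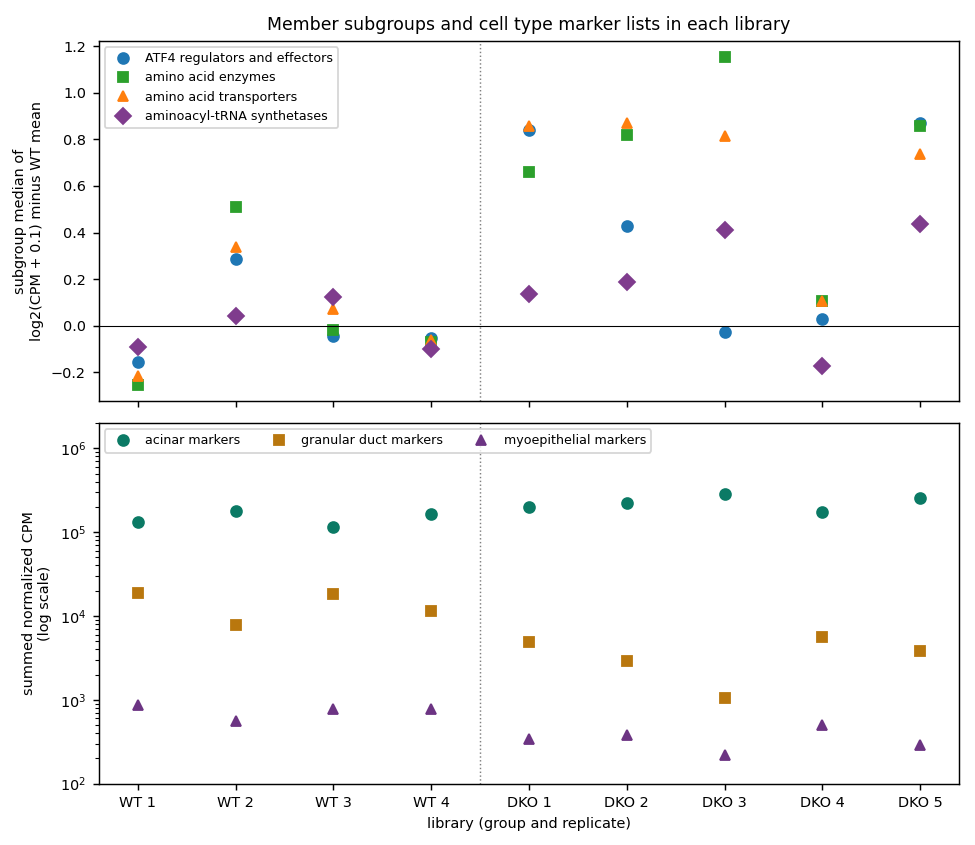
Top, the median of each member subgroup in each library, as log2(CPM + 0.1) minus the WT mean. Bottom, the summed normalized CPM of acinar (nearly all *Mucl2*), granular duct and myoepithelial markers (log scale). In DKO 4 all 4 subgroup medians lie between -0.18 and 0.11, and its duct and myoepithelial sums are the highest among the DKO libraries.

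The titles of the samples carry mouse numbers that form 3 runs, which the labels do not call batches. Within the run of WT 1 and 2 with DKO 1 and 2, the median differences (DKO minus WT, log2(CPM + 0.1)) were 0.58 for ATF4 regulators and effectors, 0.72 for enzymes, 0.69 for transporters and 0.21 for synthetases. WT 3 against DKO 4 and 5 gave 0.54, 0.54, 0.46 and 0.01. For WT 4 against DKO 3, with 1 library each and no test, they were 0.03, 1.42, 0.83 and 0.42. *Slc38a2* was lower in DKO in each run, by differences of -0.66, -0.71 and -1.0 on the same scale, and *Asns* was higher in each, by 0.95, 0.95 and 1.21.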

How the data were processed

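The authors deposited, for 9 male SMG libraries (unstranded Nextera XT, HiSeq2500), raw read counts for 48733 rows, the same counts for the 17562 rows left by their filter, and a table of signal values, which are the filtered counts scaled to TMM-normalized CPM. All 158058 of these deposited scaled signal values gave back whole counts (tolerance 0.01 counts). The submitters' processing notes name STAR 2.5.2a and the builds GRCm38, mm10 and GRCh38. The counting tool and annotation are not given in the sources used here. The 24 rows that are not mouse genes held 7.48e-05% of the reads. Female libraries were not analysed here, and 1 promoter stretch is not reported here.

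Unfiltered counts were fitted in R 4.3.3 with edgeR 4.0.16 (TMM, filterByExpr with minimum count 10 and minimum total 15, legacy quasi-likelihood test, genotype as the single term), with Benjamini-Hochberg adjustment over 13842 genes and a threshold of 0.05. DESeq2 1.42.0, the tool of the paper's methods, and limma-voom (limma 3.58.1) were alternatives. CPM values are TMM-normalized, and log2 values use CPM + 0.1. The standard error is the log2 fold change over the square root of F. Members were named with all values if called, if the groups did not overlap, if they had the highest or lowest fold change or the highest mean CPM of their subgroup, and *Atf4*. *Trib3*, *Aldh18a1*, *Gpt2* and other members given ranges were added to these. The members and lists were chosen with earlier results of these data known. The tests were tried on simulated data. Each library is 1 mouse. Without strand, reads of overlapping antisense genes cannot be told apart.

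Other settings changed, 1 choice at a time, scaling, tool, filter, table, design or libraries, and DESeq2 without each library in turn was added after seeing the data. For the 4 replicate numbers that WT and DKO share, the correlations of their deviations were 0.15, 0.298, 0.0739 and 0.0136, so the numbers were not taken as pairs. Summaries and plots were made in Python 3.11.15 (pandas 2.3.3, numpy 2.4.6, matplotlib 3.10.9).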

Additional observations from a re-analysis of the deposited data

Results flagged for a closer look

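Of 96 groups of member values checked (45 tested members and 3 untested ones in WT and in DKO), 4 held a library far from the rest of its group. Chance flags about 1 in 20 groups, and 4 of 96 is not more than that. *Chac1* in WT 2 was at 72.4 CPM, against 5.88 to 13.5 in the other WT libraries. *Aldh18a1* in DKO 3 was at 307 CPM, against 107 to 161 in the other DKO libraries, and *Eprs*, the glutamyl-prolyl-tRNA synthetase, was at 177 CPM in the same library, against 83.2 to 109. *Cebpg* in DKO 2 was at 42.7 CPM, against 31.0 to 32.4 in the other DKO libraries. Of these libraries, WT 2 had the lowest granular duct marker sum in WT (7719 CPM) and DKO 3 the lowest in DKO (1039 CPM), and the part of this in the values was not tested.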

How the results depend on the processing

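The number of members called by edgeR was 0 and stayed 0 with DESeq2's size factors, with upper-quartile factors and with the authors' filtered table. It was 11 with DESeq2's Wald test, 1 with limma-voom, 4 without a filter on low counts (*Asns*, *Pycr1*, *Slc38a2*, *Slc7a5*) and 3 with the run of mouse numbers as a term (*Pycr1*, *Slc38a2*, *Vldlr*). Leaving out 1 library gave 0 to 13 by edgeR, with 4 without WT 2 and 13 without DKO 4, and 3 to 19 by DESeq2. DESeq2 called 3 without WT 1, 15 without WT 2, 5 without WT 3 or 4, 7 without DKO 1 or 5, 6 without DKO 2, 8 without DKO 3 and 19 without DKO 4. The share of all genes called is not given here for these DESeq2 fits. At an unadjusted p under 0.05 (DESeq2), all genes numbered from 1425 without WT 1 to 2335 without DKO 4, beside 2097 with all libraries. Over all genes, edgeR's 87 calls became 5 with upper-quartile factors, 616 with DESeq2, 148 with limma-voom, 347 without the filter, 332 with mouse number runs and 0 to 441 with a library left out. It made 0 calls without WT 1, 3 or 4 or DKO 2 or 5, with 1348 or more genes at an unadjusted p under 0.05 in each such fit. With the replicate block, 0 of all genes and 0 members were called (2024 genes at an unadjusted p under 0.05), with subgroup medians of 0.39, 0.74, 0.62 and 0.13 for ATF4 regulators and effectors, enzymes, transporters and synthetases. Libraries of 2 of the 4 shared numbers, 1 and 2, correlated best with their own number. The 4 subgroup medians kept their sign in every setting, and with a library left out they ranged over 0.43 to 0.66, 0.62 to 0.94, 0.55 to 0.71 and 0.16 to 0.33. Of the 16 named members, *Cbs* alone changed sign, to a log2 fold change of -0.072 without WT 4. The scalings moved the median of all genes by less than 0.1 on the log2 scale. Members with few counts, such as *Cbs* and *Stc2*, are limited by depth.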

Other observations

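Outside the module, several plasma membrane transporters of amino acids were higher in DKO SMGs. These genes belong to the list of 25 further transporters and are named here after their values were seen. *Slc6a14*, a broad transporter of neutral and cationic amino acids, was at 22.5, 23.7, 19.6 and 19.8 CPM in WT and 30.0, 29.8, 39.3, 30.0 and 35.0 in DKO, and the groups did not overlap. In the family of *Slc38a2*, the related glutamine transporter *Slc38a1* had the opposite direction. *Slc38a1* was at 8.12, 13.2, 8.29 and 12 CPM in WT and 20.7, 16.3, 34.0, 13.6 and 18.3 in DKO (log2 fold change 0.99, standard error 0.26, adjusted p = 0.0904 by edgeR and 0.00727 by DESeq2). *Slc38a5* was at 0.0446 to 0.243 CPM in WT and 0.264 to 1.65 in DKO. It passed the filter on low counts only through DKO libraries. Its DESeq2 result, counted above among the further transporters, is therefore not read as support. *Slc38a7* and *Slc38a9*, which encode lysosomal proteins, had log2 fold changes of -0.04 and -0.02.

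*Slc7a7*, which pairs with the heavy chain SLC3A2 as LAT1 does, was higher in DKO by 1.41 on the log2 scale (standard error 0.33), with adjusted p = 0.0625 by edgeR and 0.0012 by DESeq2. *Slc7a8*, another partner of SLC3A2, had a WT mean of 15.8 ± 4.9 CPM (SD, n = 4) and a DKO mean of 10.4 ± 3.6 (SD, n = 5), and its log2 fold change of -0.61 was not called (adjusted p = 0.282, edgeR). *Slc43a1*, an amino acid transporter that needs no heavy chain, had groups that did not overlap (log2 fold change 0.66, standard error 0.14, adjusted p = 0.055, edgeR). *Pck2* was at 56.7, 92.2, 59.4 and 61.6 CPM in WT and 157, 133, 94.3, 68.1 and 153 in DKO, so that WT 2 was again the highest WT library and DKO 4 the lowest DKO library.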
